A study of Mus musculus with 2 samples.

Results

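The glutathione synthesis and breakdown enzymes are encoded by 7 genes here, Chac1, Chac2, Gclc, Gclm, Gss, Ggct and Gsr, out of 21866 protein-coding genes. They were chosen by the function of their products, with earlier results of these data known, and each was matched to the gene models by symbol. The series profiled binding of CHOP, a transcription factor induced by endoplasmic reticulum stress, by chromatin immunoprecipitation sequencing (ChIP-seq) of wild-type (WT) mouse liver. Mice were injected intraperitoneally with tunicamycin, a drug that blocks protein N-glycosylation, at 1 mg/kg, and liver was taken after 8 h. There was 1 library immunoprecipitated with an anti-CHOP antibody from pooled liver of 3 mice, and its control was 1 library of input chromatin under the same treatment. No untreated or CHOP-deficient liver was analysed here, and strain, age and sex are not given in the sources used here, so every value below describes where CHOP signal lay in stressed liver and no value compares conditions or replicates. A peak list cannot check the tissue label against expressed marker genes.

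Glutathione is the main soluble thiol of cells and is made in large amounts by hepatocytes, which also export it. Glutamate-cysteine ligase, formed by the catalytic subunit Gclc and the modifier subunit Gclm, joins glutamate to cysteine in the rate-limiting step, and glutathione synthetase (Gss) adds glycine. Chac1 and Chac2 are cytosolic enzymes that split glutathione into 5-oxoproline and cysteinylglycine, Ggct releases 5-oxoproline from other gamma-glutamyl compounds, and glutathione reductase (Gsr) regenerates reduced glutathione with NADPH. Chac1 is known as a target of the ATF4 and CHOP arm of the unfolded protein response, and Gclc, Gclm and Gsr are known targets of NRF2, which binds antioxidant response elements.

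The authors' list held 14157 peaks, with a median fold enrichment of 6.75 (range 2.31 to 158.2) over the local background and a median of 11 reads at the summit (4 to 329). A peak was called a promoter peak where its summit lay within 1 kb of a start site of the gene. It was called distal where the summit lay further away but within 50 kb, and the gene had the nearest protein-coding start site. The 7 genes carried 9 peaks. A promoter peak was present at 4 of 7 members, Chac1, Gclc, Gclm and Gsr (57.1%), against 27.9% of all protein-coding genes. A distal peak was present at 4 of 7, Gclc, Gclm, Gss and Gsr, against 18.0% of all genes. The only distal peak of Gsr held 6 reads, with 4.70-fold and a −log10 q of 3.10. Both values lie below the limits of 5 used in the alternatives. Counting either class, 5 of 7 (71.4%) had a peak, against 38.2% of all genes. Chac2 and Ggct had none. Under these distances all of the genes that make or recycle glutathione carried a peak, and of the 3 breakdown genes Chac1 did. With 7 genes this split is only a description. The only Gss peak held 7 reads and had the smallest width in the list, 172 bp. With distal peaks within 100 kb Chac2 gains a peak, of 17 reads.

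**Figure D1:**
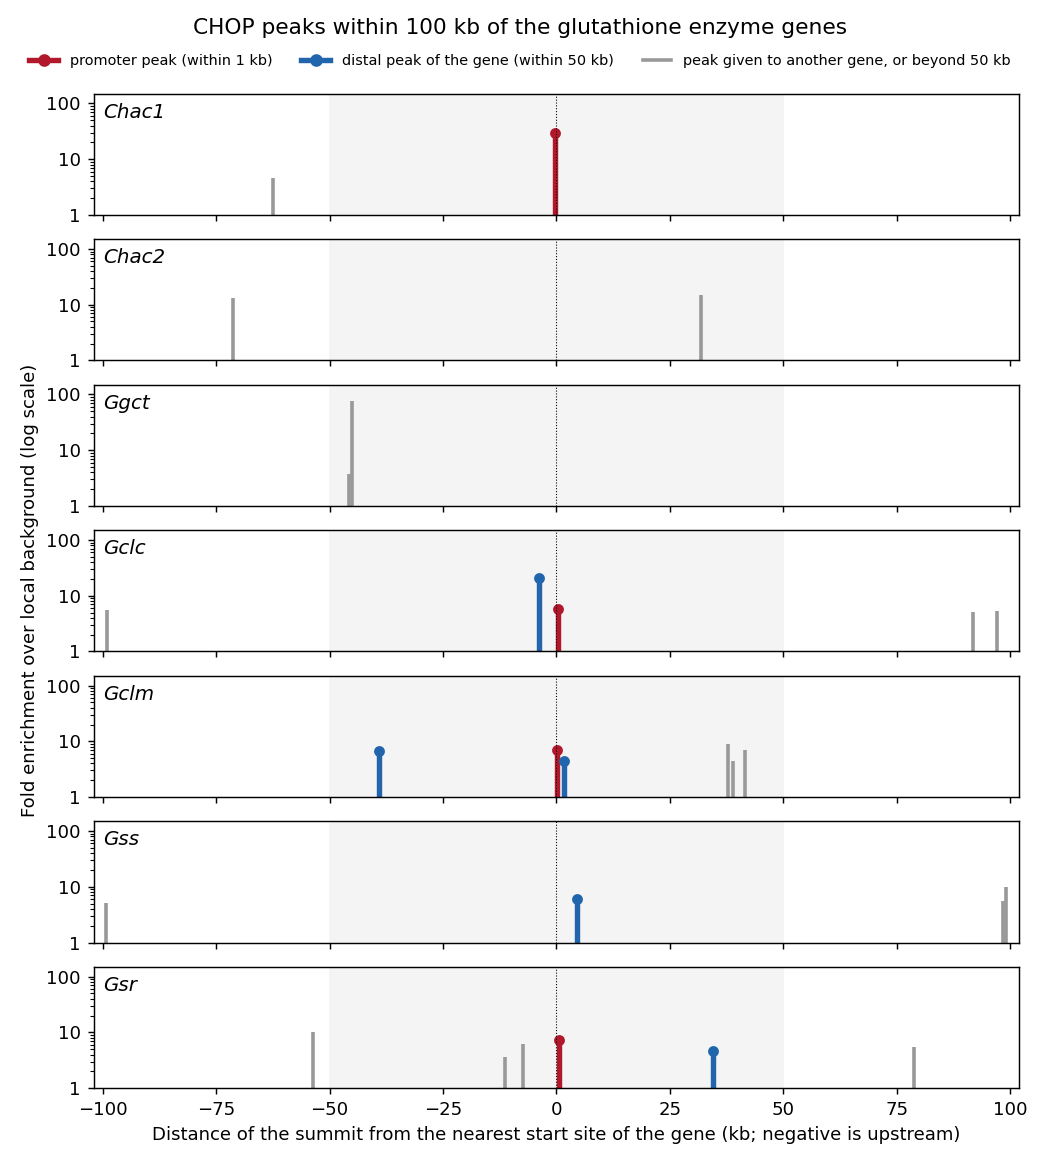
CHOP peaks within 100 kb of the nearest start site of each glutathione enzyme gene. The horizontal axis is the distance of the summit in kb, negative upstream, and the vertical axis is fold enrichment on a log scale. Red stems are promoter peaks, blue stems are distal peaks given to the gene, grey lines are peaks given to another gene or beyond 50 kb, and the shaded band is the 50 kb range. Chac1 (29.9-fold) and the upstream Gclc peak (21.1-fold) have the highest deposited folds of these 9 peaks, and Chac2 and Ggct have no coloured stem.

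Among the breakdown enzymes, Chac1 (ENSMUSG00000027313.3, mm10 chr2:119351229-119354381, plus strand) had 1 peak, a promoter peak at chr2:119350753-119351217. Its summit lay 210 bp upstream of the start site, in sequence annotated as intergenic. It held 39 reads over a local background of 0.337 reads, which gave 29.9-fold (95% exact Poisson interval 21.5 to 40.6) and a −log10 q of 62.4. The interval did not overlap those of the other 3 members with a promoter peak. Among the 6100 genes with a promoter peak, 120 had a higher fold, which puts Chac1 at percentile 98.0 by fold. By reads at the summit it stood at percentile 94.2. Its background lay at percentile 7.79 of the 6306 promoter peaks, whose median background was 1.12 reads. The intervals here cover counting error on the summit reads only, because the reads carry no molecular identifiers and there was 1 immunoprecipitated library.

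The sequence under the Chac1 summit is shown because it is the only one of the 9 member windows with a match to the C/EBP-ATF composite element, TGATGNAA, the mixed site bound by dimers of a C/EBP-family and an ATF-family protein. It runs 5′ to 3′ on the plus strand (GRCm38, chr2:119350969-119351119), the strand of the gene, from 260 to 110 bp upstream of the start. The capitals mark, in order, the cAMP response element core TGACG, the composite read on the opposite strand, and a CCAAT box.
Chac1 promoter: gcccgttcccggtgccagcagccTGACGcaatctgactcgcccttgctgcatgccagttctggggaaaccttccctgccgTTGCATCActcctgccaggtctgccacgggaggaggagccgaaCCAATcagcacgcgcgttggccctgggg
The composite began 180 bp upstream of the start and 30 bases downstream of the summit, and the TGACG core began 237 bp upstream of the start, on the other side of the summit. A composite lay within 50 bp of the summit in 6.28% of all 14157 peaks and in 1.89% of promoter peaks, and in 1.04% of windows of the same length centred on start sites. A composite together with a TGACG core was found in 11 of 6306 promoter windows (0.174%), of which Chac1 had the third highest fold. The CCAAT box lay further out, 73 bases from the summit, and 18.7% of all peaks hold this motif within 100 bp of the summit.

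The other breakdown genes had no peak of either class. Chac2 (ENSMUSG00000020309.6, chr11:30976707-30986350, minus strand), a paralogue of Chac1 that acts on the same substrate, had its nearest summit 31838 bp downstream. That peak (15.1-fold, 21 reads) lay 77 bp from a start site of Asb3 and was counted there. A further peak of 13.1-fold (7.95 to 20.6; 17 reads, chr11:31057503-31057815) lay 71302 bp upstream of Chac2, whose start was the nearest one, but beyond the 50 kb limit. Ggct (ENSMUSG00000002797.9, chr6:54982580-54992950, minus strand) had its nearest summit 45023 bp upstream. That peak (74.9-fold, 232 reads) lay 34 bp from a start of Gars, glycyl-tRNA synthetase. No peak here says only that no summit passed the authors' calling threshold. The weakest peaks of the list had 4 reads at the summit, so lower signal was not detectable.

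For the catalytic subunit of the ligase, Gclc (ENSMUSG00000032350.9, chr9:77754535-77794485, plus strand), the stronger of 2 peaks was the distal one. Its summit lay 3728 bp upstream of the start, at chr9:77750542-77751118, in intergenic sequence with no annotated start site of any gene type within 1 kb. It held 62 reads, more than any other member peak, over a background of 1.98 reads, giving 21.1-fold (16.3 to 27) and a −log10 q of 64.9. Among the 7851 peaks outside promoters it stood at percentile 93.6 by deposited fold, 97.7 by reads and 75 by reads over background with no read added. Its window was 76.2% G and C, percentile 96.0 of the peaks outside promoters, whose median was 47.5%, and its background stood at percentile 97.9 of that class. The promoter peak of Gclc, at chr9:77754620-77755088 with its summit in an intron 426 bp after the start, held 13 reads over 1.45 and gave 5.71-fold (3.23 to 9.47). The intervals of the 2 Gclc peaks did not overlap.

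The Gclc upstream sequence is shown because it carried both an antioxidant response element (TGACNNNGC), the site of NRF2 with small MAF proteins, and an E-box (CACGTG), the site of basic helix-loop-helix factors. It is written on the plus strand (GRCm38, chr9:77750737-77750837), from 3798 to 3698 bp upstream of the start, with the response element, read on the opposite strand, and then the E-box in capitals. An AP-1 heptamer (TGANTCA) overlaps the element by all of its 7 bases. Beside it is the element near the Gclm summit, also on the plus strand and read on the opposite strand (chr3:122245644-122245668), from 87 to 111 bp after the start.
Gclc upstream peak: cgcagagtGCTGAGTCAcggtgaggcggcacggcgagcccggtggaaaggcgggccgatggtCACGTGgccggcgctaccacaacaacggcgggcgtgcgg
Gclm 5′ UTR element: aggtttctGCTTAGTCAttgtcttc
The E-box of Gclc ended 3 bases before the summit, where 3.37% of all peaks hold one within 50 bp. The response elements lay 54 bases from the summit at Gclc and 57 bases at Gclm, outside the 50 bp window but within 100 bp, where 9.44% of all peaks hold one. Both motifs together within 100 bp occurred in 148 of all 14157 peaks (1.05%) and in 33 of the 7851 peaks outside promoters (0.420%), Gclc among them. Peaks outside promoters have a lower median G and C content than this window. The Gclc sequence was chosen for holding both motifs, so these shares are only a description. Neither sequence held the composite, and neither did the windows of the other Gclc and Gclm peaks.

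The modifier subunit gene Gclm (ENSMUSG00000028124.15, chr3:122245557-122270732, plus strand) had the most peaks of the members, 3. The promoter peak, at chr3:122245368-122246041, had its summit 38 bp after the start, within the 5′ UTR. It held 16 reads over 1.39, for 7.12-fold (4.25 to 11.3). A peak in a Gclm intron 1616 bp after the start held 5 reads, for 4.34-fold (1.9 to 9.17), and stood at percentile 6.27 of peaks outside promoters. The third peak lay 39066 bp upstream, in an intron of Gm43158, with 8 reads and 6.75-fold (3.34 to 12.6). The intervals of the 3 overlapped, so their order by fold is not resolved at this depth. A peak 37815 bp after the start (9.12-fold, 28 reads) was nearer to Dnttip2 and was not counted for Gclm.

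Gss (ENSMUSG00000027610.17, chr2:155563181-155592810, minus strand), which completes the tripeptide, had no promoter peak. Its 1 distal peak, at chr2:155588046-155588217, lay in a Gss intron 4446 bp after the nearest start, with 7 reads over 0.338 and 5.98-fold (2.85 to 11.5). The recycling enzyme gene Gsr (ENSMUSG00000031584.16, chr8:33652523-33698163, plus strand) had a promoter peak at chr8:33653391-33654007. Its summit lay in a coding exon 530 bp after the protein-coding start, with 18 reads over 1.58 and 7.35-fold (4.51 to 11.4). A second Gsr peak, in an intron 34617 bp after the start, held 6 reads, for 4.70-fold (2.15 to 9.45). Gss and Gsr windows held none of the C/EBP-type motifs within 50 bp, and a C/EBP site (TTGCNNAA) lay 71 bases from the summit of the intronic Gsr peak.

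**Figure D2:**
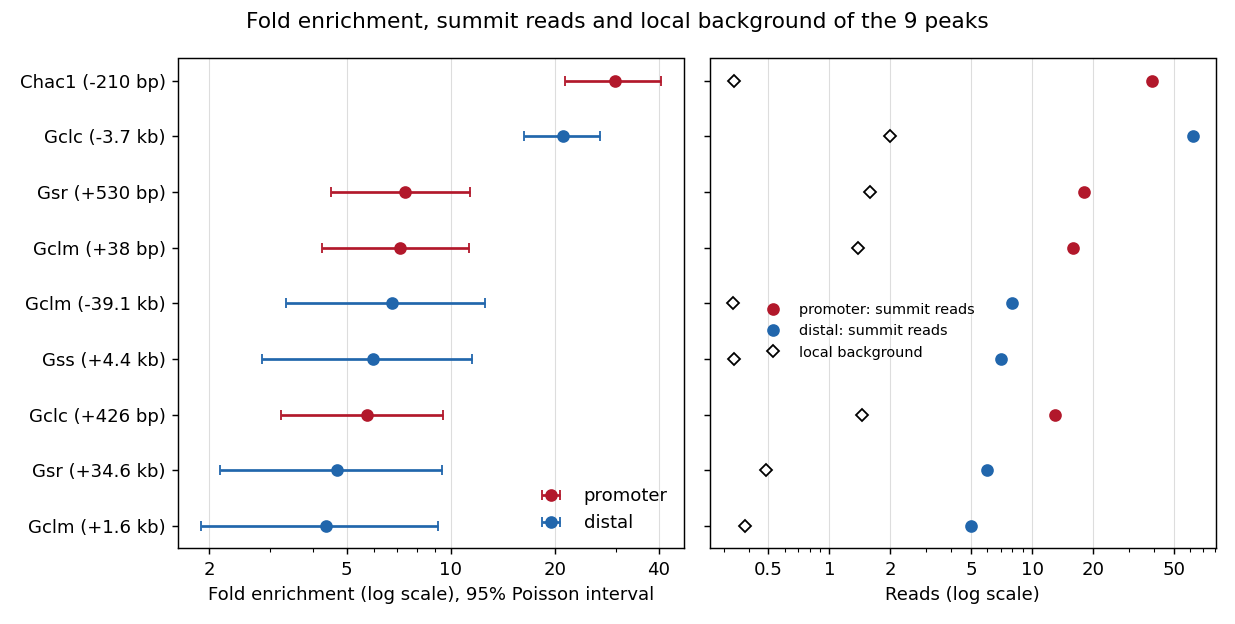
The 9 peaks of the glutathione enzyme genes, ordered by fold. The left panel gives the fold enrichment on a log scale with its 95% exact Poisson interval, and the right panel gives the reads at the summit (filled circles) and the local background (open diamonds) on a log scale. Red marks promoter peaks and blue marks distal peaks. The Chac1 interval, 21.5 to 40.6, overlaps that of the upstream Gclc peak, 16.3 to 27, and the other 7 intervals all end at or below 12.6.

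By deposited fold, Chac1 stood at percentile 98.3 and the upstream Gclc peak at 93.6 of their class, and the other 7 between 6.27 and 59.9. The deposited fold adds 1 read to both summit and background, and without it the gap at Gclc closed. Reads over background were then 116 at Chac1 (82.2 to 158) and 31.3 at the upstream Gclc peak (24.0 to 40.1), against 24.0 at the far upstream Gclm peak (10.4 to 47.3) and 20.7 at the Gss peak (8.32 to 42.6). The other 5 peaks ran from 8.95 to 13.1. The lowest background in the whole list was 0.333 reads. Those of Chac1 (0.337), the far upstream Gclm peak (0.333) and the Gss peak (0.338) lay at or next to it, against 1.98 at the upstream Gclc peak. The high ratios of these 3 peaks on this scale therefore rest on division by a background at its lowest value. On that scale the interval of Chac1 overlapped none of the other 8, while that of the upstream Gclc peak overlapped those of 4 distal peaks. The upstream Gclc peak stood at percentile 75 of its class on that scale, the far upstream Gclm peak at 59.3, and Chac1 at 99.5 of promoter peaks. The promoter peaks of Gsr, Gclm and Gclc stood at percentiles 56.4, 53.5 and 30.1 of the 6100 genes with a promoter peak, and their intervals overlapped. Over the 4 members with a promoter peak the median fold was 7.24, against 6.86 over all genes with one. The 4 weakest distal peaks, 2 of Gclm and 1 each of Gss and Gsr, held 5 to 8 reads and were 172 to 174 bp wide. The smallest width in the list is 172 bp, at which 19.2% of all peaks lie. Between 27.7% and 39.6% of the bases in their summit windows lay in sequence masked as repeats. No member window shared a run of 20 bases with any other peak window, whereas 2398 of the 14157 windows shared one with at least 10 others.

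**Figure D3:**
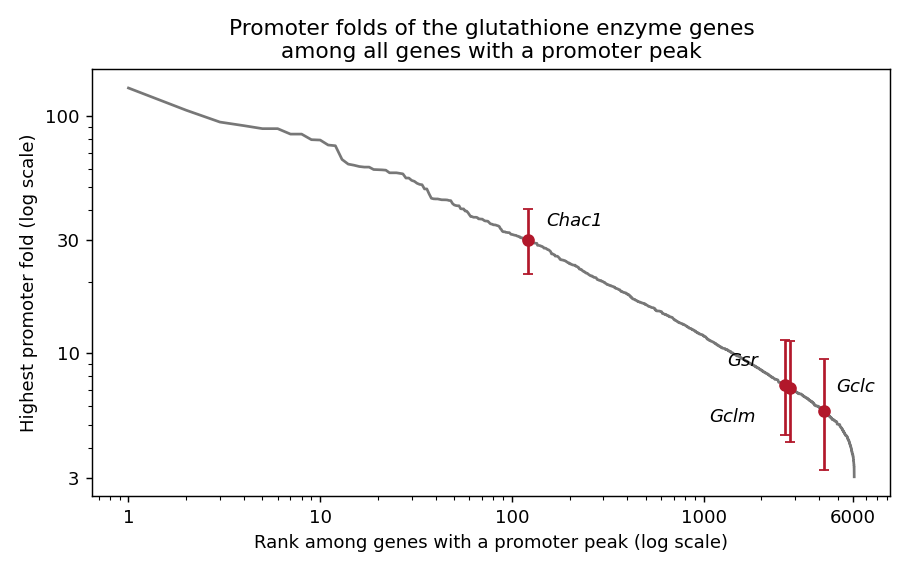
Highest promoter fold of each of the 6100 genes with a promoter peak, ordered by rank, with both axes on log scales. Red points are the 4 members with a promoter peak and bars are 95% exact Poisson intervals. Chac1 has 120 genes above it, and Gsr, Gclm and Gclc have 2653, 2821 and 4255.

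Base composition differed among the members. The ratio of observed to expected CpG dinucleotides, taken 500 bp to either side of the start, was 0.640 at Chac1, 0.918 at Gclc, 1.02 at Gclm and 0.880 at Gsr, the members with a promoter peak. It was 0.377 at Chac2, 0.697 at Gss and 0.779 at Ggct, against a median of 0.561 over all genes. The 2 sets of members overlapped, since Chac1 lay below Gss and Ggct. Of the 13250 genes within the members' range of this ratio, 40.8% had a promoter peak, a share between the members' 57.1% and the 27.9% of all genes. The part of composition in the members' peaks was not tested. In the summit window Chac1 held 63.4% G and C, percentile 15.4 of promoter peaks, against 73.3% to 77.2% at Gclc, Gclm and Gsr. Over 500 bp to either side of the start it did not stand apart. There the G and C content was 62.7% at Chac1, 54.8% at Gsr, 63.5% at Gclc and 68.2% at Gclm.

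Motif counts are given for only 9 windows, too few to resolve shares of a few percent. Within 50 bp of the summit, the TGACG core was matched at 2 of 9, the promoter peaks of Chac1 and Gclc. It was found in 8.81% of all peaks and 13.3% of promoter peaks. The GC box (GGGCGG) was matched at 3 of 9, the promoter peaks of Gclc, Gclm and Gsr, against 23.4% of all peaks and 45.4% of promoter peaks. No member window held the CHOP-C/EBP site TGCAATNCC, found in 0.932% of all peaks, the C/EBP site (4.44%), or the palindrome TGACGTCA (0.516%). A match is a description of letters, not a bound site. Promoter sequences of RefSeq (GRCm38.p6), from 250 bases before to 50 after the start, were matched for 5 of 7 members, Chac1, Chac2, Gclm, Gss and Ggct. Among these the composite was found in Chac1 and in 3.97% of all 32851 promoters. The antioxidant response element was found in Gclm (1 match) and Ggct (2 matches) and in 12.4% of all promoters. The Gclm element shown above begins 95 bp after the start, beyond the end of these promoter sequences, so the Gclm match is another site.

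The wider glutathione network, a list of 81 other genes in 8 roles, gave 31 promoter peaks (38.3%) and 50 genes with any peak (61.7%), against 27.9% and 38.2% of all genes. The list was drawn up with earlier results of these data known, so these shares only describe it. The regulators in it had a promoter peak in 7 of 7, against 27.9% of all genes. Cebpg, a C/EBP partner of ATF4, reached 131-fold (117 to 146), the highest promoter fold in the list, Bach1, a repressor at antioxidant response elements, 15.1-fold, and Mafg, a small MAF partner of NRF2, 14.1-fold. Atf4, the transcription factor upstream of Chac1 in the stress response, had 6.85-fold with 14 reads, close to the median of all genes. Of the 9 peroxidase genes 2 had a promoter peak. Gpx4, the peroxidase that uses glutathione to reduce lipid hydroperoxides, had 61.2-fold (51.6 to 72.1) with 141 reads, 150 bp after its start (chr10:80053650-80054629). That interval lay above the one of Chac1. Without the added read the values were 107 for Gpx4 (89.9 to 126) and 116 for Chac1 (82.2 to 158), and the intervals overlapped. The Chac1 value divides 39 reads by a background of 0.337, next to the lowest of the list. The Gpx4 value divides by 1.32, so their order is not resolved. Prdx6 had 4.84-fold.

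Precursor supply, the genes that provide cysteine and its methionine-derived sources, had a promoter peak in 4 of 10, against 27.9% of all genes. Mat2a, which makes S-adenosylmethionine, had 10.2-fold, Gnmt, which uses it, 9.75-fold, and Cth, which releases cysteine from cystathionine, 9.64-fold. The Cth peak window shares a run of 20 bases with 407 other peak windows. Slc7a11, the cystine importer, had 7 reads and 6.0-fold (2.86 to 11.6), with its summit 61 bp upstream of the start. Its sequence is shown because it holds the composite of Chac1 once on each strand, although its fold was lower and its interval did not overlap that of Chac1. It is written on the minus strand, the strand of the gene (GRCm38, chr3:50443633-50443680), from 66 to 19 bp upstream of the start, with the composites in capitals.
Slc7a11 promoter: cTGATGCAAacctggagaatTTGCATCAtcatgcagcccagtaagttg
Of the 31 network genes with a promoter peak, only Cebpg and Slc7a11, 2 genes, held the composite in that window, against 1.89% of all promoter peaks.

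Among transporters 5 of 7 had a promoter peak, against 27.9% of all genes. Slc25a39, the mitochondrial glutathione importer, had 30.2-fold (23.3 to 38.5, 63 reads), an interval that overlaps that of Chac1. Without the added read Slc25a39, with a background of 1.12 reads, was at 56.1 (43.1 to 71.8). That lay below the interval of Chac1, whose background of 0.337 was next to the lowest of the list. The carriers Slc25a11, at 19.1-fold in a peak shared with Rnf167, and Slc25a10, at 10.3-fold, followed. Thiol-disulfide exchange genes had a promoter peak in 7 of 10, against the same 27.9%. They were led by the thioredoxin reductase Txnrd3 at 14.1-fold, thioredoxin (Txn1) at 6.85-fold and the mitochondrial glutaredoxin Glrx5 at 6.60-fold. Txnrd1, the cytosolic thioredoxin reductase, had 5.60-fold. Of the glyoxalases and other glutathione-using enzymes 3 of 7 had a promoter peak, again against 27.9%. Adh5, which oxidises the glutathione adduct of formaldehyde, had 16.5-fold, Nit1 11.4-fold in a peak shared with Pfdn2, and the glyoxalase Hagh 9.67-fold in a peak shared with Fahd1.

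Extracellular breakdown and the 5-oxoproline cycle had a promoter peak in 3 of 9, against 27.9% of all genes. These were Oplah, the 5-oxoprolinase that opens the product of Chac1, at 7.88-fold, Lap3 at 5.60-fold and Cndp2 at 4.68-fold. Ggt1, which starts the breakdown of exported glutathione at the cell surface, had no peak of either class. Neither did Ggt5, Ggt6, Ggt7, Dpep1 and Anpep, the other genes of this role. Counting either class, 3 of 9 (33.3%) had a peak, close to the 38.2% of all genes. The glutathione S-transferases had a promoter peak in 0 of 22, against 27.9% of all genes, and a distal peak in 10 of 22 (45.5%), against 18.0% of all genes. Many of these transferases are near copies of each other and the authors' treatment of reads with several matches is not stated, so their assignment is uncertain. Of the 10 distal windows 2 share a run of 20 bases with 10 or more others, beside 2398 of all 14157 windows. Ppp1r15a, where the submitters tested the antibody before sequencing, had 40.6-fold (31.2 to 51.9; 61 reads) in a peak shared with Plekha4. Its interval overlapped that of Chac1.

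**Figure D4:**
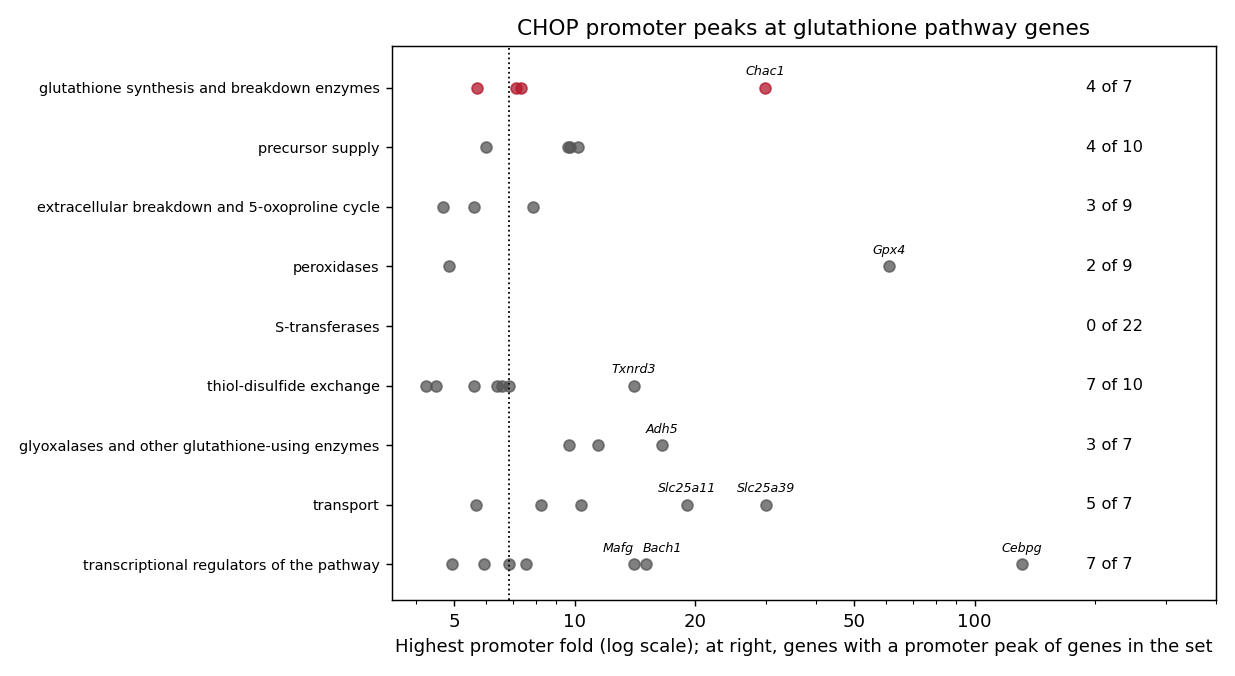
Highest promoter fold, on a log scale, of each gene with a promoter peak, for the 7 members (red) and the 8 roles of the wider network (grey). Numbers at right give the genes with a promoter peak of the genes in the set, and the dotted line is the median over all genes with one, 6.86. The members run from 5.71 to 29.9, the regulators reach 131 at Cebpg, and the S-transferases have no point.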

How the data were processed

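Mapping with Bowtie to mm10 tolerated up to 2 mismatches per single-end read, per the labels' protocols, and at most 2 reads per position and strand were kept. SAMtools 1.9 and Sambamba 0.7.1 served as filters and MACS2 2.1.2 called peaks at default settings, per the submitters' processing notes and the labels' protocols. The Bowtie version, the treatment of reads with several matches and the total depth are not stated. The input's own processed file was not analysed here.

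The authors deposited for each peak a fold enrichment (a ratio over the local background), −log10 p, −log10 q, a score and the summit offset. These values are the authors' and served to describe, rank or filter peaks. Summit reads and background were solved from fold, as (reads + 1)/(background + 1), and −log10 p under a Poisson distribution. All peaks gave a whole number of reads, and the largest residual was 3.13e-05 in −log10 p (tolerance 0.0001). The 95% exact Poisson interval of the reads, at fixed background, gave that of the fold. Because 1 read is added above and below, a fold with low background understates reads over background. Without that read, ratios at the lowest backgrounds depend strongly on the background value, whose own error is not in the intervals.

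GENCODE M21 models and GRCm38.p6 sequence were used. Motifs were searched on both strands. Scripts were tested on simulated data, and Python 3.11.15, numpy 2.4.6, pandas 2.3.3, scipy 1.17.1 and matplotlib 3.10.9 were used. The 7 genes, the lists and the motifs were chosen with earlier results of these data known. Named network genes are a preset few, the highest folds per role (up to 3), the genes without a peak in the role of Ggt1, and Ppp1r15a. With 1 immunoprecipitated library no test was run. Alternatives changed the distances, thresholds, start sites and windows.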

Additional observations from a re-analysis of the deposited data

How the results depend on the processing

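The members with a promoter peak stayed at 4, Chac1, Gclc, Gclm and Gsr, at a −log10 q or fold of at least 5, without repeat-sharing windows, and with the outermost or the nearest start site. They also stayed at 4 with summits within 3 kb and with any base of the peak within 1 kb. Within 500 bp the count was 3, without Gsr at 530 bp, against 25.8% of all genes. Any peak gave 5, against 29.7% to 38.2% of all genes. With distal peaks within 100 kb it gave 6, which adds Chac2, against 39.8%. The network count of 31 ranged from 26 (fold of at least 5, against 23.5% of all genes) to 37 (3 kb, against 30.3%). RefSeq start sites, chosen after seeing the data, gave 4, 5 and 31, against 28.2%, 38.5% and 28.2% of all genes. Member windows with any C/EBP-type motif numbered 1 within 50 bp of the summit (Chac1), 0 within 25 bp, where the Chac1 composite lies outside, and 2 within 100 bp, which adds the C/EBP site of the intronic Gsr peak. Without the added read, the 9 folds ran from 8.95 to 116. In order they were Chac1 116, upstream Gclc 31.3, far upstream Gclm 24.0, Gss 20.7, intronic Gclm 13.1, intronic Gsr 12.3 and the promoters of Gclm 11.5, Gsr 11.4 and Gclc 8.95, and 7 of the 9, all but the Gclc and Gsr promoters, left their counting interval. Percentiles and intervals on that scale were added after seeing the data. No paired analysis was possible because there was 1 immunoprecipitated library. Depth limits the weak peaks most: the 8-read Gclm interval, 3.34 to 12.6, spans both quartiles of folds outside promoters, 5.25 and 9.75.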

Other observations

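The 11 promoter windows that hold both the composite and a TGACG core were looked at after their values were seen, and they cover a wide range of folds, from 5.25 to 105.6. Chac1 (29.9-fold, 39 reads) came after Trib3, a pseudokinase gene of the stress response (105.6-fold, 161 reads), and Rcc2 (31.4-fold, 46 reads), and just before Scpep1 (29.6-fold, 44 reads). The 2 elements were 52 bases apart at Chac1, against 19 at Trib3, 7 at Rcc2 and 46 at Scpep1. Promoter peaks with the composite numbered 119 and had a median fold of 9.75 (quartiles 6.75 and 16.9) and a median background of 0.353 reads. The 6187 without it had a median fold of 6.60 (5.25 and 9.05) and a median background of 1.17 reads. The summit reads had a median of 13 in both sets.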
